A study of Mus musculus with 3 samples.

Results

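The collagen genes are described here in lower-limb skeletal muscle of male C57BL/6 mice, comparing 3 control samples with 3 samples from mFoxO1KO mice, whose muscle carries an inducible deletion of the transcription factor gene Foxo1. All mice ate an AIN93G diet with doxycycline (0.625 g/kg) between 8 and 14 weeks of age, so the controls carried the drug as well. The promoter that drove the deletion, and whether each sample was 1 mouse or a pool, are not given in the sources used here. Each control sample (Cy3 dye) shared an Agilent whole-mouse array with a knockout sample (Cy5 dye), which gives 3 arrays of 2 colours. The dyes were never swapped, so a dye effect of a probe and the genotype cannot be told apart in any ratio below. Members were the probes whose gene symbol, found through the probe's accession, begins with Col, a number, a and a number. This matched 63 of 39429 probes that were not controls, for 43 of the 44 such genes in the RefSeq table. The exception was Col12a1, a member of the FACIT class, which matched no probe and is not analysed here. Of the 43 genes, 26 had a probe above background on all 3 arrays in the same channel and were tested among 17460 genes.

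Collagens are matrix proteins built from chains that wind around each other in a triple helix. Fibrillar collagens, above all types I and III, form the tensile fibres of the epimysium, perimysium and endomysium, and FACIT collagens (fibril-associated collagens with interrupted triple helices) sit on the surface of such fibrils. Type IV collagen is the network of the basement membrane that wraps each muscle fibre and capillary, and type VI forms beaded microfibrils that link this basement membrane to the fibres around it. In muscle, fibroblasts and fibro-adipogenic progenitors are main sources of collagen, next to endothelial, Schwann and tendon cells.

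All 8 muscle fibre markers examined, among them the creatine kinase gene Ckm and the actin gene Acta1, were well above background in both channels of every array. The share of probes above background was 52% to 55.9% for Cy3 and 56% to 56.9% for Cy5, and no spot was saturated. Foxo1 had log2 ratios of knockout over control of -1.50, -2.42 and -2.27 on arrays 1, 2 and 3 (limma, adjusted p = 0.0278). Its other probe had -0.70, -1.64 and -1.84. The gene passed in 16 of 17 other settings, with a highest adjusted p (limma) of 0.106. Precision is limited throughout by having 3 arrays. In whole muscle, fewer cells of a type and less RNA per cell cannot be told apart.

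Collagen transcripts differed little between the genotypes. Of the 26 tested, 1 fell and 0 rose at an adjusted p under 0.05 (limma), where 2.75% of all genes tested passed, 0.699% lower and 2.06% higher. At an unadjusted p under 0.05 there were 3 lower and 3 higher collagens, against 11.5% and 15.3% of all genes. The mean log2 ratio was below 0 for 13 and above 0 for 13, with a median of 0.0011 and a range of -0.43 to 0.51, beside a median of 0.0064 over all genes. On all 3 arrays 4 collagens were below 0 and 6 above, against 24.5% and 27.9% of all genes. The mean lay under 0.25 in size for 22 of the 26, and for 81.9% of all genes. Each of the 26 confidence intervals (95%, from limma's moderated error, not adjusted for the number of genes) lay within 2-fold in either direction. This bound holds for the main processing only. With the scanner's processed signals the mean was -1.36 for Col24a1 and -1.24 for Col9a1, both dim probes. These means lay beyond 2-fold, and neither gene passed (limma, adjusted p of 0.0844 and 0.0767). For 17 of the 26 the mean ratio in the main processing was smaller than the SD of the gene's own control samples. That SD runs across arrays, while each ratio is taken within an array. The median size of the mean ratio was 0.13 for collagens, beside a median control SD of 0.17. Over all genes both medians were 0.11.

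**Figure D1:**
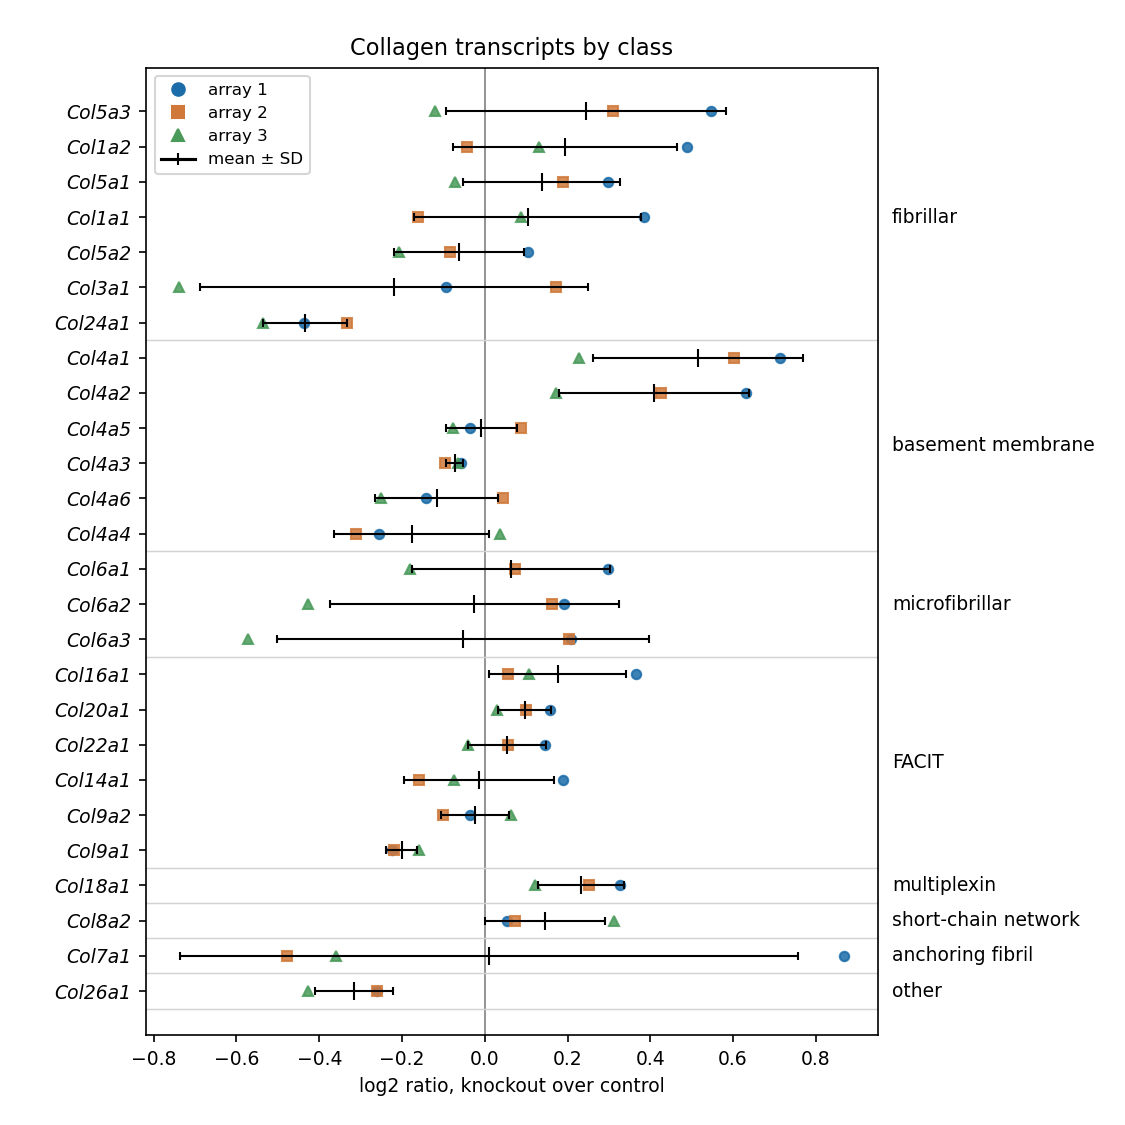
Log2 ratio of knockout over control (horizontal axis) for the 26 tested collagen genes, grouped by class. Symbols are the 3 arrays, bars the mean ± SD; only Col24a1, with a mean of -0.43, passed the test, and Col4a1 and Col4a2 lay above 0 on every array.

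The gene that fell was Col24a1, a minor fibrillar collagen best known from developing bone and cornea. Its normalised log2 intensity was 7.36, 7.05 and 7.23 in the control samples of arrays 1, 2 and 3, and 6.92, 6.72 and 6.69 in the knockout samples. Every knockout value lay below every control value, which was so in the same direction for 11.9% of all genes. The log2 ratio was -0.43 ± 0.10 (SD, n = 3), or 74.0% of control (limma, adjusted p = 0.0492). The probe was dim, brighter than only 15.7% of the genes tested. Its call was lost without any 1 of the 3 arrays and was kept in 4 of 17 other settings, with adjusted p between 0.0223 and 0.173, while the sign was negative in all 17. The ratio was largest with the scanner's processed signals, at -1.36 (adjusted p = 0.0844), and was -0.78 with the local background subtracted.

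The sequence just before the RefSeq start of Col24a1 is shown because it is the only called member. Those of Col1a2 and Col3a1 are shown beside it because the chains of types I and III did not share an array pattern (values below). The sequences come from RefSeq (GRCm38.p6), run 5' to 3' on the plus strand and end at the start of the gene, or at the end of a motif that spans it. Both strands were searched, with overlaps allowed, and capitals mark any match. The motifs were the core bound by FoxO factors, spelled GTAAACA, and the cAMP response element, spelled TGACGTCA. The others were the box spelled CCAAT, the TATA box, spelled TATAAA, and the GC box, spelled GGGCGG.
Col24a1 (chr3:145292222-145292472): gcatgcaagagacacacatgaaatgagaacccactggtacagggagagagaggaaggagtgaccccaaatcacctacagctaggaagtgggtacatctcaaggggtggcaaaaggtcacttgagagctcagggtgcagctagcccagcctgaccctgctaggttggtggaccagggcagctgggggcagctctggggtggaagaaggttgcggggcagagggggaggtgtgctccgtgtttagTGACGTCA
Col1a2 (chr6:4505368-4505617): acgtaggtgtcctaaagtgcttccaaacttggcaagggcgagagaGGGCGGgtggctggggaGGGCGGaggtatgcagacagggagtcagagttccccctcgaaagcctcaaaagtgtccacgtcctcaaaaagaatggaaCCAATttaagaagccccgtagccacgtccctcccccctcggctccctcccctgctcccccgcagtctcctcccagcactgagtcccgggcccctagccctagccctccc
Col3a1 (chr1:45311288-45311537): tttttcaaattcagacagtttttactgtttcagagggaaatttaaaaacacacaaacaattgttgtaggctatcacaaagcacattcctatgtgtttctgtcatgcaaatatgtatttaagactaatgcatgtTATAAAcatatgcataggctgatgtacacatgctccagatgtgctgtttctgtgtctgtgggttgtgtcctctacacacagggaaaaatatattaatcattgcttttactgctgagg
Col24a1 holds a cAMP response element that ends on the first transcribed base, Col1a2 holds a CCAAT and 2 GC boxes, and Col3a1 holds a TATAAA. The promoter table had 38 windows of 300 bases for 35 of the 43 collagen genes. The FoxO core was in 1 of the 38, that of Col6a1, against 3.65% of all 32851 windows. The cAMP response element was in 1 (1.79% of all windows), CCAAT in 13 (37.4%), TATAAA in 5 (13.6%) and the GC box in 23, or 60.5%, against 35.7%. The share of G and C had a median of 52.7% over all windows. Collagen windows ran from 37.7% (Col3a1) to 75.0% (Col5a1), most of them above that median, and the motif counts were not adjusted for this. These are matches of letters in a short window.

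The major fibrillar chains did not move as a class. Col1a1 and Col1a2 encode the chains of type I collagen, the bulk of muscle connective tissue. Col1a1 had log2 intensities of 10.87, 11.41 and 10.29 in controls and 11.25, 11.25 and 10.38 in knockouts, and Col1a2 had 12.53, 13.23 and 12.29 in controls and 13.02, 13.19 and 12.42 in knockouts. In both genes the pair on array 3 was the lowest and the groups overlapped, so the samples differed more from array to array than from genotype to genotype. The log2 ratio was 0.10 ± 0.27 for Col1a1 (adjusted p = 0.596) and 0.19 ± 0.27 for Col1a2 (adjusted p = 0.331). The confidence interval reached from -0.19 to 0.40 for Col1a1 and from -0.10 to 0.49 for Col1a2.

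Col3a1, the chain of type III collagen, had log2 intensities of 11.54, 11.67 and 11.45 in controls and 11.45, 11.84 and 10.71 in knockouts. The control samples lay close together, with an SD of 0.11, while the knockout of array 3 was lower than all other samples and carried most of the mean ratio of -0.22 ± 0.47 (adjusted p = 0.474). Type V chains, which nucleate type I fibrils, had ratios of 0.14 ± 0.19 for Col5a1, -0.06 ± 0.16 for Col5a2 and 0.24 ± 0.34 for Col5a3, none past the threshold. All 3 had their highest ratio on array 1 and a ratio below 0 on array 3. Over the 7 fibrillar genes tested, 4 means were above 0 and 3 below, with class medians of 0.30, -0.04 and -0.12 on arrays 1, 2 and 3. The other 4 fibrillar genes, Col2a1, Col11a1, Col11a2 and Col27a1, did not pass the filter. The 5 named genes outside the collagens whose ratios lay nearest to these fibrillar medians were Prss53, Oacyl, Mrps12, Pyroxd2 and Pnpla6, with root mean square differences of 0.015 to 0.019 over the 3 arrays.

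In the basement membrane class the chains of the common type IV network stood apart from the others. Col4a1 and Col4a2 make the heterotrimer found in nearly all basement membranes. Col4a1 had log2 intensities of 10.20, 10.84 and 10.56 in controls and 10.92, 11.44 and 10.79 in knockouts, and Col4a2 had 9.87, 10.41 and 10.19 in controls and 10.50, 10.84 and 10.36 in knockouts. On each array the knockout was the higher of the pair, most on array 1 and least on array 3, while the groups overlapped because the arrays differed in level. The log2 ratio was 0.51 ± 0.25 for Col4a1 (adjusted p = 0.0761) and 0.41 ± 0.23 for Col4a2 (adjusted p = 0.0946), the largest mean ratios above 0 of any collagen tested, and neither passed. Both had means above 0 in all 17 other settings. They passed in 1 of them, median centring without loess, which raised the median of all genes to 0.16 and gave 0.72 for Col4a1 and 0.61 for Col4a2.

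Col4a1 and Col4a2 are neighbours on opposite strands, with RefSeq starts 21 bases apart. The remaining type IV chains, which are restricted to fewer basement membranes, had means between -0.18 and -0.01. Col4a3 had -0.07 ± 0.02, Col4a4 -0.18 ± 0.19, Col4a5 -0.01 ± 0.08 and Col4a6 -0.12 ± 0.15, with adjusted p of 0.266 or more. Thus 2 of the 6 means were above 0, and the class median of -0.04 lies in the range of the remaining chains and does not describe Col4a1 and Col4a2. The remaining chains had dimmer probes, at intensity percentiles of 5.07 (Col4a3) to 28.1 (Col4a4), against 71.0 for Col4a1 and 66.0 for Col4a2. With the scanner's processed signals Col4a3 had 0.10 and Col4a4 -0.47. Col4a3 and Col4a4 are also adjacent to each other, as are Col4a5 and Col4a6.

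Type VI collagen, the microfibrillar class, went different ways on different arrays. Its chains Col6a1, Col6a2 and Col6a3 had ratios of 0.30, 0.19 and 0.21 on array 1, of 0.07, 0.16 and 0.20 on array 2, and of -0.18, -0.43 and -0.57 on array 3. Col6a3 showed the widest change, with log2 intensities of 9.78, 10.25 and 9.98 in controls and 9.99, 10.45 and 9.41 in knockouts. The knockout of array 3 was thus the lowest of its 6 samples and the knockout of array 2 the highest. The means were 0.06 ± 0.24 for Col6a1, -0.03 ± 0.35 for Col6a2 and -0.05 ± 0.45 for Col6a3 (adjusted p of 0.725, 0.926 and 0.872). Without array 3 the means of Col6a2 and Col6a3 were above 0, at 0.18 and 0.21. The alternative chains Col6a4, Col6a5 and Col6a6 were not above background on any array in either channel.

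**Figure D2:**
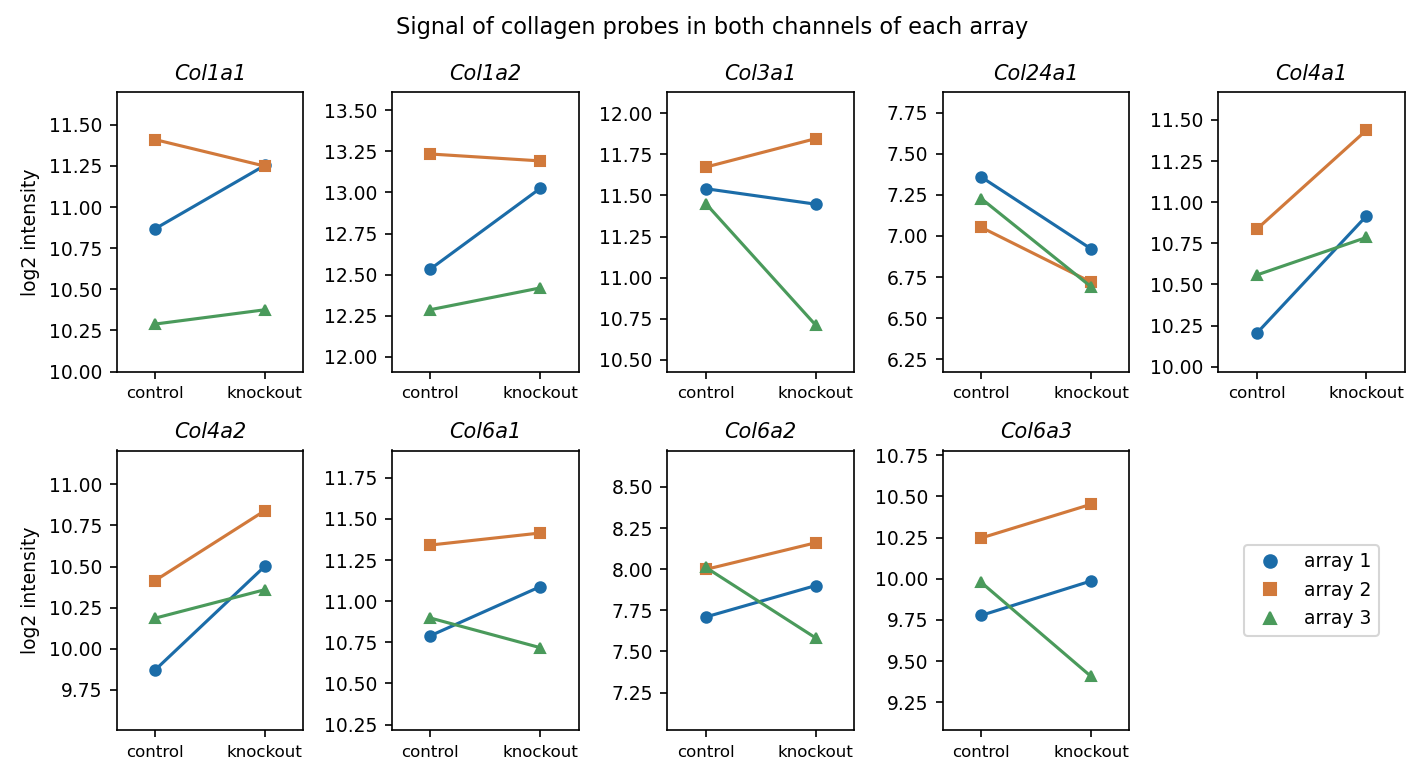
Normalised log2 intensity of 9 collagen probes in the control and knockout channel; each line joins the samples of 1 array and every panel spans the same log2 range. The lines of Col24a1 all slope down and those of Col4a1 and Col4a2 all slope up. Those of Col6a1, Col6a2 and Col6a3 slope up on arrays 1 and 2 and down on array 3. Col3a1 slopes up on array 2 and down most on array 3.

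The FACIT genes tested had means between -0.20 and 0.18, and none passed. Col14a1, which encodes a collagen that regulates fibril diameter in tendon and muscle, had -0.01 ± 0.18 (adjusted p = 0.932). Col22a1, which marks tissue junctions such as the myotendinous junction, had ratios of 0.15, 0.06 and -0.04, and a mean of 0.05 ± 0.09 (adjusted p = 0.623). Col16a1 had 0.18 ± 0.17 and Col20a1 0.10 ± 0.06, above 0 on every array and neither past the threshold (adjusted p of 0.242 and 0.347). A further Col16a1 probe that passed the filter had -0.12 ± 0.02, so the probes of this gene disagreed in sign. The same held for Col20a1, whose other probe past the filter had -0.02 ± 0.14.

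Col9a1 and Col9a2 encode chains of a cartilage collagen. Col9a2 had -0.02 ± 0.08 (adjusted p = 0.833). Col9a1 had ratios of -0.23, -0.22 and -0.16, with a mean of -0.20 ± 0.04 (adjusted p = 0.111). It was above background on all 3 control arrays but only 1 knockout array, and is among the dimmest 1.48% of the genes tested. Over the 6 FACIT genes, 3 means were above 0 and 3 below, with a class median of 0.02. None passed the test, and at an unadjusted p under 0.05 there was 1, Col9a1 (limma), against 11.5% of all genes lower and 15.3% higher.

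Side by side, the class medians of the mean ratios were 0.10 for fibrillar, -0.04 for basement membrane, -0.03 for microfibrillar and 0.02 for FACIT genes. The order of the classes changed with the array. The fibrillar median minus that of basement membrane genes was 0.34 on array 1 and -0.11 on arrays 2 and 3. Minus the microfibrillar median it was 0.09, -0.20 and 0.31 on the 3 arrays. Each of the 6 differences between classes had a mean smaller than its SD over the 3 arrays, such as 0.06 ± 0.26 for fibrillar against microfibrillar and 0.0032 ± 0.13 for fibrillar against FACIT. The ratio of all collagens was highest on array 1, with a median of 0.17, against 0.06 on array 2 and -0.07 on array 3. Of the 26 genes, 17 were above 0 on array 1, 15 on array 2 and 10 on array 3, while the shares for all genes were 53.7%, 49.5% and 51.8%.

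Chains of some collagen types resembled each other closely on the 3 arrays. As a description with no test, the root mean square difference between the array ratios was 0.087 for Col6a2 and Col6a3, 0.095 for Col1a1 and Col1a2 and 0.12 for Col4a1 and Col4a2. These are ranks 3, 6 and 13 among the 325 possible pairs of the 26 genes, whose median was 0.33. Col4a3 with Col4a5 had 0.11 (rank 8). Both have dimmer probes and ratios near 0, and flat ratios also give a small difference. The 23 pairs of the same type had a median of 0.24. The least alike of those 23 was Col4a1 with Col4a4, at 0.78. All pairs share the same 3 arrays and their 6 RNA samples.

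Among the smaller classes, Col18a1, a basement membrane collagen whose end releases endostatin, had ratios of 0.33, 0.25 and 0.12 and a mean of 0.23 ± 0.10 (adjusted p = 0.115). Its other probe that passed the filter had -0.07 ± 0.11. Col26a1 had log2 intensities of 7.07, 7.17 and 7.09 in controls and 6.81, 6.91 and 6.67 in knockouts, so the groups did not overlap. Its ratio was -0.32 ± 0.10 (adjusted p = 0.0725), also from a dim probe. Col24a1, Col26a1 and Col9a1 were the 3 collagens whose groups did not overlap, all lower in the knockout, against 11.9% of all genes lower in this way. No collagen was higher in this way, against 14% of all genes. Among the 3 lower ones, Col9a1 was above background on all 3 control arrays but only 1 knockout array. It passed the filter only through the channel where it was higher, so its lack of overlap is no support.

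Col7a1, the anchoring fibril collagen of skin, had the widest spread of any member, with ratios of 0.87, -0.48 and -0.36 (mean 0.01 ± 0.75, adjusted p = 0.986). Its sign therefore rested on array 1, without which the mean was -0.42. Col8a2, a short-chain collagen, had 0.15 ± 0.14 (adjusted p = 0.284). It was above background on all 3 knockout arrays but only 2 control arrays. Col8a2 thus passed the filter only through the channel where it was higher, so its place among the collagens above 0 on all 3 arrays is no support. The other 17 genes were not tested, and 13 of them were not above background on any array in either channel. These were Col2a1, Col10a1, Col11a1 and Col9a3, which are cartilage collagens, Col15a1, a collagen of muscle and capillary basement membranes with 3 probes here, and Col13a1 and Col25a1, transmembrane collagens of the neuromuscular junction. They also included Col17a1, Col27a1, Col28a1, Col6a4, Col6a5 and Col6a6. Col8a1, Col11a2, Col19a1 and Col23a1 were above background on at most 2 arrays of a channel. No level of these genes can be ordered between genotypes from such probes.

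**Figure D3:**
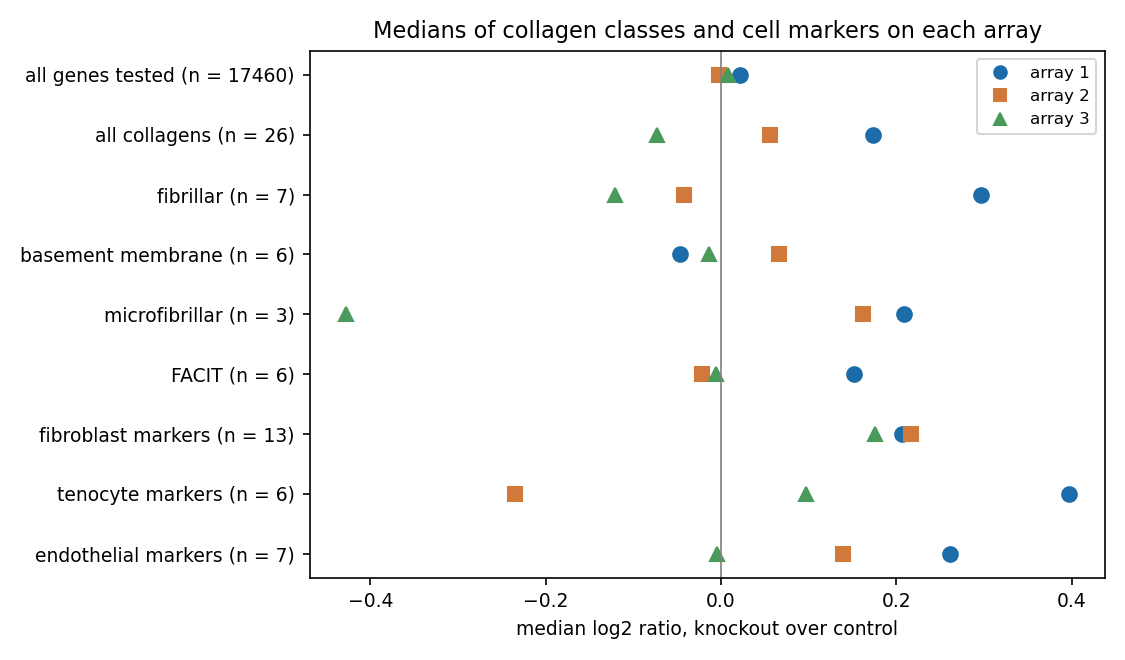
Median log2 ratio of knockout over control on each array (horizontal axis) for all genes tested, the collagens, their 4 classes and 3 lists of cell markers, with the number of genes tested. All genes lie near 0, the microfibrillar median falls to -0.43 on array 3, and tenocyte markers lie below 0 on array 2 only.

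Markers of the cells that make collagen were examined on the same arrays. At an unadjusted p under 0.05 (limma), 15.3% of all genes were higher and 11.5% lower, the shares to set beside the counts below. None of 13 fibroblast and fibro-adipogenic progenitor markers passed the test (7 were higher and 0 lower at an unadjusted p under 0.05, limma). Their median was 0.21, and 0.21, 0.22 and 0.18 on the 3 arrays, with 11 of 13 means above 0. Fbn1, the fibrillin gene, picked after its values were seen, had 0.30 ± 0.13. None of 6 tenocyte markers passed (0 at an unadjusted p under 0.05), and their medians of 0.40, -0.24 and 0.10 had the same order over the arrays as the ratios of Col1a1 (0.39, -0.16 and 0.09). That order was not particular to this list, since the adipocyte medians below had it as well. All tenocyte markers had it except Scx (-0.13, 0.16 and 0.08) and Thbs4 (0.58, -0.22 and -0.26). The 7 endothelial markers had medians of 0.26, 0.14 and -0.0047, beside Col4a1 with 0.71, 0.60 and 0.23, and none passed (2 higher at an unadjusted p under 0.05). An order falling from array 1 to array 3 was not particular to this list. The medians of all collagens (0.17, 0.06 and -0.07) and of the basement membrane partners (0.33, 0.09 and 0.07) had it as well. All endothelial markers had it except Tek (0.02, 0.14 and 0.21) and Kdr (0.21, -0.70 and -0.08). The 7 adipocyte markers tested, all above background in both channels, had medians of 2.93, 0.22 and 1.87 and a range of means from 0.66 to 3.12. None passed, with 6 higher at an unadjusted p under 0.05. The 6 Schwann cell markers had medians of 0.09, 0.34 and -0.05 and the 3 macrophage markers -0.15, 0.35 and 0.50, with none past the threshold and 1 higher at an unadjusted p under 0.05 in each (limma). Of 8 cartilage and bone markers with a probe, Sox9 alone was tested and had 0.25 ± 0.33. The part of any of these cell types in the collagen ratios was not tested.

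On the list of collagen processing and cross-linking, 2 of 11 genes tested rose and 0 fell, where 2.06% of all genes rose and 0.699% fell. These were Lox and Loxl1, which encode lysyl oxidases, which cross-link collagen and elastin. Lox had log2 intensities of 7.54, 7.98 and 7.48 in controls and 7.97, 8.33 and 8.08 in knockouts, so the groups overlapped only between the control of array 2 and the knockout of array 1. Its log2 ratio was 0.47 ± 0.13 (adjusted p = 0.0498). Loxl1 had 8.77, 8.94 and 8.99 in controls and 9.20, 9.35 and 9.36 in knockouts, with no overlap, as held for 14% of all genes in this direction. Its ratio was 0.40 ± 0.03 or 1.32-fold (adjusted p = 0.0470). Of the means, 7 were above 0 and 4 below. At an unadjusted p under 0.05 the list had 3 genes higher and 2 lower (limma), against 15.3% and 11.5% of all genes. Besides Lox and Loxl1 the higher ones included Loxl4, with 0.30 ± 0.14 (limma, adjusted p = 0.0970), from a dim probe. Loxl4 was above background on all 3 knockout arrays but only 1 control array. It passed the filter only through the channel where it was higher, so its place in this count and its lack of overlap are no support. The 2 lower ones, named after their values were seen, were Tll1 with -0.21 ± 0.04 (adjusted p = 0.103) and Adamts14 with -0.19 ± 0.05 (adjusted p = 0.127). Both encode procollagen-processing proteases, and neither overlapped between the groups, as held for 11.9% of all genes in this direction. Tll1 was above background on all 3 control arrays but only 1 knockout array, and is among the dimmest 1.08% of the genes tested. It passed the filter only through the channel where it was higher, so its lack of overlap is no support. The calls of Lox and Loxl1 were close to the threshold, since neither gene passed without any 1 of the 3 arrays. Lox passed in 5 and Loxl1 in 7 of 17 other settings. Adjusted p (limma) lay between 0.0283 and 0.186 for Lox and between 0.0162 and 0.190 for Loxl1. With all its probes averaged Loxl1 had 0.30 (adjusted p = 0.0697). Lox was 0.73 with the processed signals.

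None of the 18 genes tested for folding and modification of collagen passed (4 higher and 1 lower at an unadjusted p under 0.05, limma), and 15 of their means were above 0, with a median of 0.12. Over all genes 15.3% were higher and 11.5% lower at that unadjusted p. P4ha2, a prolyl hydroxylase subunit, had ratios of 0.67, 0.47 and 0.06 (mean 0.40 ± 0.31, adjusted p = 0.140) and passed in 1 of 17 other settings. P3h4, a partner of lysyl hydroxylation, had 0.18 ± 0.06, and the prolyl isomerase gene Fkbp14 had -0.19 ± 0.08. With all its probes averaged Fkbp14 had -0.06. Serpinh1, the collagen chaperone HSP47, was chosen after its values were seen. It had ratios of 0.30, 0.73 and -0.69, and so was lowest on array 3. The same held for 16 of the 26 collagens, Col3a1 and the type VI chains among them.

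**Figure D4:**
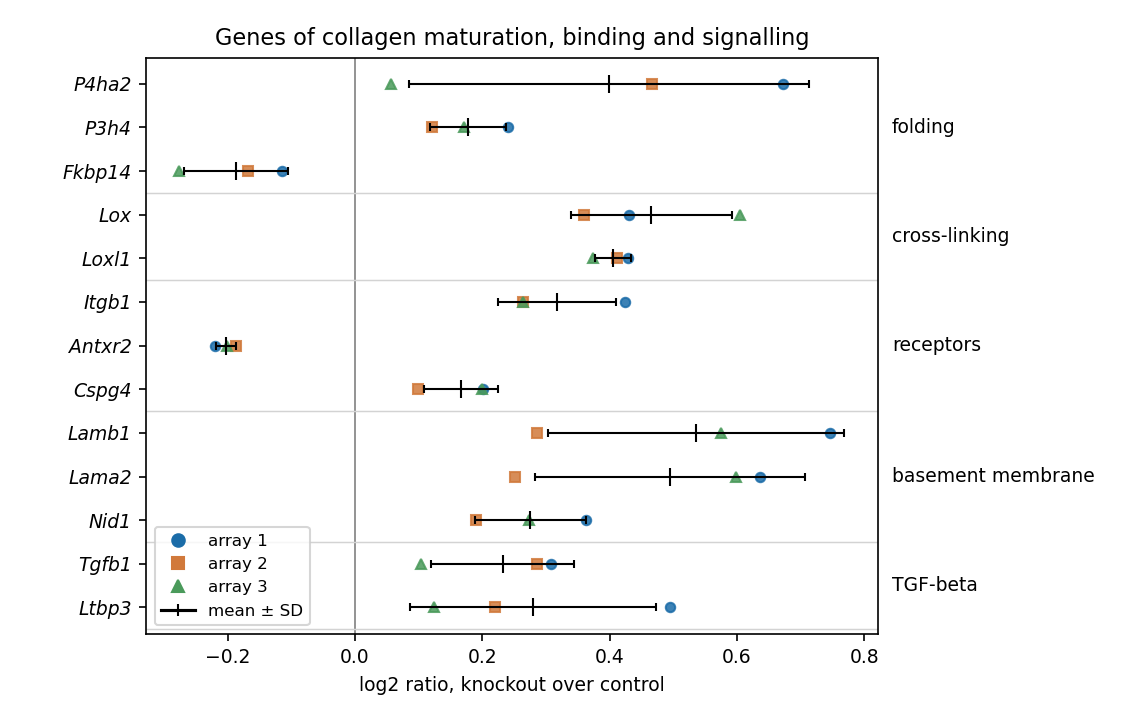
Log2 ratio of knockout over control (horizontal axis) for the named genes of collagen folding, cross-linking, receptors, basement membrane partners and TGF-beta signalling. Symbols are the 3 arrays and bars the mean ± SD; Lox and Loxl1 are the genes past the threshold, at 0.47 and 0.40.

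None of 10 collagen receptor genes passed (2 higher and 1 lower at an unadjusted p under 0.05, limma). The shares of all genes at that unadjusted p, also for the lists below, were 15.3% higher and 11.5% lower. The integrin subunit gene Itgb1 had 0.32 ± 0.09 (adjusted p = 0.0709) and passed in 2 of 17 other settings. Cspg4, a proteoglycan that binds type VI collagen, had 0.17 ± 0.06, and Antxr2, which takes up type VI collagen, -0.20 ± 0.02. None of 10 basement membrane partners passed either (3 higher and 1 lower at an unadjusted p under 0.05), and 8 means were above 0, with a median of 0.15. The laminin genes Lamb1 and Lama2 had 0.54 ± 0.23 and 0.50 ± 0.21 (adjusted p of 0.0654 and 0.0663), and each passed in 2 of 17 other settings. Both had no overlap between groups, as held for 14% of all genes in this direction. Nid1, which joins laminin to type IV collagen, had 0.28 ± 0.09, and 0.15 with all its probes averaged. Among 16 genes of TGF-beta signalling, the main inducer of collagen transcription, none passed (3 higher and 0 lower at an unadjusted p under 0.05). Tgfb1 had 0.23 ± 0.11 and Ltbp3, a latent TGF-beta binding protein gene, 0.28 ± 0.19.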

How the data were processed

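RNA of lower-limb muscle (0.2 µg of total RNA per labelling) was measured on 3 arrays of 2 colours. The authors' deposited files hold the median intensity of each of 44397 spots and of its local background as scanned, and processed intensity values and a log10 ratio made by Agilent Feature Extraction, per the file headers version 11.5.1.1 and per the submitters' processing notes 9.3.2.1. They hold no gene names, so symbols came from a RefSeq table (GRCm38.p6) through the accession. It named 27508 of 39429 probes (69.8%), and the other genes kept their accession. Since the array design used an older mouse build, coordinates are printed only for the RefSeq promoter sequences, on GRCm38.p6.

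Background was corrected with normexp (offset 50) and loess was run within each array, giving control spots no weight (limma 3.58.1, R 4.3.3). Spots marked as outliers were left out, between 281 and 319 per array. A probe was kept if well above background in the same channel on all 3 arrays, and the brightest probe stood for a gene. Log2 ratios were tested against 0 with an intercept-only limma fit (two-sided, Benjamini-Hochberg over 17460 genes, threshold 0.05). Channel values are log2 intensities after loess, with mean intensities quantile normalised between arrays, which leaves ratios as they are. The fit was tested on simulated data with known changes. Named were called collagens, the 3 with the largest ratio in each class, a fixed set of main chains, and in each partner list the called genes or the 3 with the smallest p, except 1 gene that is not reported here. The members and lists were chosen with earlier results of these data known. Alternatives covered background, signal source, normalisation, filter, probe, variance model, pairing and left-out arrays.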

Additional observations from a re-analysis of the deposited data

How the results depend on the processing

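Across 18 alternatives the number of collagen genes past the threshold stayed at 0 to 2. It was 0 without background subtraction, with the local background subtracted, with a normexp offset of 10, with the processed signals, with the deposited log ratios, with the filter in both channels, with the filter on 2 arrays, with the mean of all probes, and in separate channels with no replicate block. It was 2 with median centring only (Col4a1 and Col4a2) and 2 in separate channels with the array as a replicate block (Col24a1 and Col26a1). Leaving out replicate 1, 2 or 3 gave 0 each, a range of 0 to 0.

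The count over all genes, 481, became 247 with the local background subtracted, 184 with offset 10, 200 with the processed signals and 200 with the deposited log ratios. It was 1204 with median centring only (1153 higher and 51 lower, or 95.8% higher, against 359 and 122, or 74.6%), 823 with scaling between arrays, 746 without a filter, 55 with the filter in both channels and 315 with the filter on 2 arrays. In separate channels it was 1624 with the replicate block and 214 with no replicate block. Without replicate 1, 2 or 3 it ranged from 49 to 405, lowest without replicate 2, and was 157 without replicate 3.

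With median centring only, the median of the collagens was 0.15 and that of the FACIT class 0.17, beside 0.16 for all genes. The other class medians moved by less than their SD over arrays. The cause of these differences was not tested. Of the 43 collagens, 17 were not above background on all 3 arrays of a channel and were not tested. Each log ratio pairs the samples of 1 array, as the replicate block does.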
